A study of Xenopus laevis with 4 samples.

Results

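Transcripts of the Nodal ligands, of their feedback inhibitor Lefty and of the Vg1-type ligands were compared between embryos depleted of the TBP family and control embryos of the frog Xenopus laevis. The entries were chosen by gene name alone: nodal with or without a number, lefty, gdf1 and gdf3, in the L and S copies that the allotetraploid genome carries. This gave 13 of the 45098 entries of the deposited gene table, of which 9 are nodal, 2 lefty and 2 Vg1-type entries. No entry matched nodal5, which was therefore not analysed here. Triple-knockdown (TKD) embryos (2 samples) were injected at the 1-cell stage with a mixture of antisense oligonucleotides against tbp, tbp2 and tlf (0.8 ng according to the labels, whereas the study's methods list a separate dose for each). Control embryos (2 samples) were injected with water, without a control oligonucleotide. Each sample held 10 whole embryos, which were collected at stage 10.5, the early gastrula, from outbred animals. According to the study, TKD embryos arrest before gastrulation, so both groups share a nominal stage. Whole embryos were sequenced, so fewer expressing cells and less RNA per cell cannot be told apart.

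Nodal ligands are secreted proteins of the TGF-beta family that bind activin receptors together with a co-receptor of the Cripto type. Phosphorylated Smad2 then enters the nucleus and, with the partner FoxH1, activates genes of mesoderm and endoderm. In Xenopus, the maternal T-box factor VegT and beta-catenin induce nodal genes in the vegetal cells of the blastula. Nodal signaling activates lefty, which encodes an extracellular antagonist of the pathway, and thereby limits itself. Vg1-type ligands (gdf1, known as Vg1, and gdf3, known as derrière in Xenopus) signal through the same receptors, and Vg1 mRNA is laid down in the oocyte.

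The antisense oligonucleotides define the TKD group and are given here 5′ to 3′, with capitals for the central bases that are joined by unmodified linkages and lower case for the bases that flank them.
TBP: tgcatTTCGCGCTctaag
TBP2: tcatcGTATGGAgtcat
TLF: atatcCAGTGCCacatc
In the modified gapped design, the DNA strand is stable and RNase H cuts the RNA opposite the central stretch.

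The deposited values are group means of read counts divided by size factors, and because such means are sums of whole reads, the reads of each library were recovered from them. The recovered totals were 2523060 and 1414476 reads in the TKD libraries and 5222085 and 3436848 reads in the control libraries, called deeper and shallower within each group. Levels below are reads divided by the size factor of the library (normalized reads). They compare a gene between libraries but are not corrected for length, so they do not rank genes against each other. Differences were tested with limma-voom on the 17026 entries that had at least 10 reads in at least 2 libraries, and adjusted P-values are Benjamini-Hochberg values over all of them at a false discovery rate of 10%. The study reported depletion in TKD embryos of TBP protein by western blot and of tlf and tbp2 mRNA by RT-qPCR. Of the knockdown targets, tlf was not analysed here, as no entry carried its symbol, and the others were thinly covered. tbp.S was at 32.9 and 19.8 normalized reads in TKD and 57.8 and 87.7 in control libraries (log2 fold change −1.32, limma-voom adjusted P = 0.0943, and between 0.139 and 0.259 without either TKD library or the shallower control library), tbp.L had a log2 fold change of −0.51 (adjusted P = 0.638), and tbpl2.L, the gene of TBP2, had at most 13 reads in a library.

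Transcripts of nodal1, nodal2 and nodal6 and of lefty.L were higher in TKD embryos, whereas nodal.L and gdf3.1 did not pass the test. Of the 13 entries, 6 rose and 0 fell (limma-voom, with 0 below control at an unadjusted P under 0.05 and 0 lower with limma-trend). The 6 include nodal2.S, which reached the minimum of reads only in the TKD libraries. Its entry into the test depended on the level that was compared, so its call is a description. For nodal1.L, nodal2.L and nodal6.S, 2 TKD libraries but only 1 control library reached the minimum. Control libraries alone would not have brought them into the test. Their entry therefore also depended on the level that was compared, and their calls carry the same limit. nodal6.L and lefty.L reached the minimum in all 4 libraries. A further 3 were tested without passing the threshold, and 4 had too few reads for the test. Over all entries tested, 10.3% rose and 14.3% fell. For 9 of the 13 entries the lower TKD value exceeded the higher control value, for 1 entry all TKD values were lower, and for 3 the groups overlapped. Among all entries with at least 1 read, 22.3% were fully above and 24.6% fully below control, and among the entries tested 29.9% and 30.7%. Neither the labels nor the methods state that samples of a group stem from different clutches, and the P-values therefore reflect only the variation among these libraries, which may be technical. Without the filter on low counts, 6.1% of the 26695 entries with at least 1 read rose and 9.1% fell. Of the 13 entries, 6 rose and 1 (gdf1.1) fell in that fit.

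**Figure D1:**
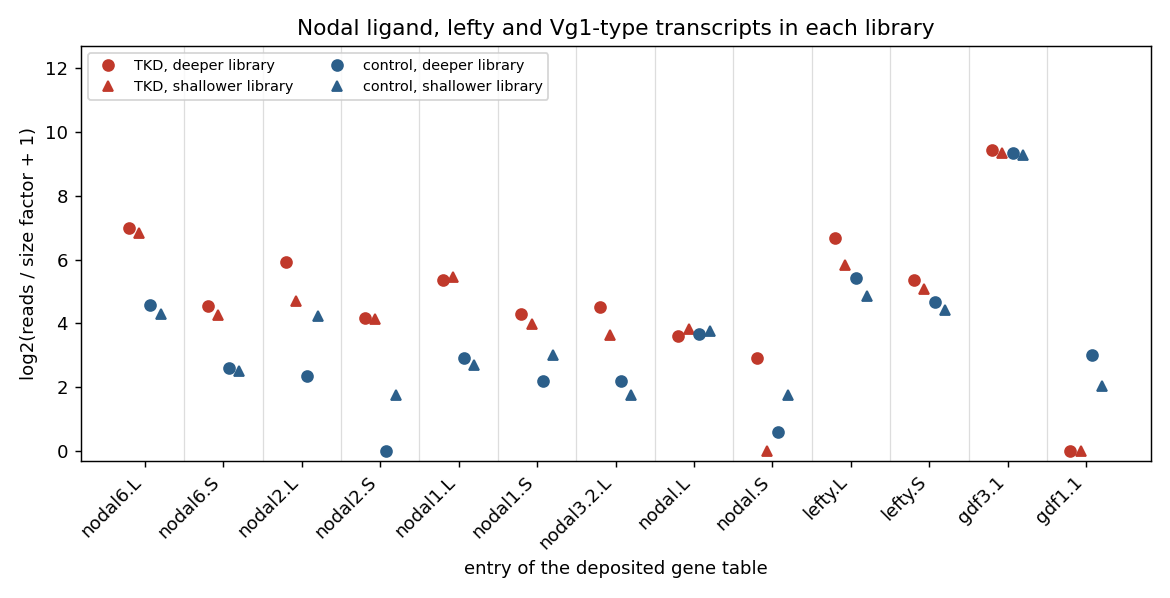
Normalized reads of the 13 entries in each of the 4 libraries, on a log2 scale after adding 1 (y axis), with the TKD libraries in red and the control libraries in blue. The red points stand above the blue points for nodal6, nodal2, nodal1, nodal3.2 and lefty, lie among them for nodal and gdf3.1, and are at 0 for gdf1.1.

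nodal6 (Xnr6) is among the earliest nodal genes to be activated in the vegetal cells of the blastula. nodal6.L had 126.0 and 114.1 normalized reads in TKD and 22.8 and 18.8 in control libraries, with deposited means of 120.1 and 20.8. The groups were far apart and the libraries within each group were close. The fold change was 5.68 (95% interval 3.29 to 9.80, log2 fold change 2.51, SE 0.34, limma-voom adjusted P = 0.00512). It passed the threshold in all 14 alternative analyses (log2 fold changes between 2.15 and 2.68, adjusted P from limma between 2.9e-11 and 0.0386). The lowest value came from the fit that paired the deeper TKD with the shallower control library, a pairing that the labels do not give. The lowest adjusted P-values of nodal2.L, nodal1.L and lefty.L below came from the same fit. nodal6.S had 22.6 and 18.2 normalized reads in TKD and 5.07 and 4.70 in control libraries, again without overlap. Its log2 fold change was 2.04 (SE 0.66, limma-voom adjusted P = 0.0742) and rested on 35 reads in TKD and 16 in control embryos. This call was lost without the deeper TKD (adjusted P = 0.145), the deeper control (0.356) or the shallower control library (0.198), while the log2 fold change stayed between 1.87 and 2.14 without any library.

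nodal2 (Xnr2) is expressed in prospective endoderm and mesoderm and induces both when supplied ectopically. nodal2.L had 60.2 and 24.8 normalized reads in TKD and 4.06 and 18.0 in control libraries. All TKD values exceeded all control values, but the libraries of each group differed widely, and the shallower TKD library was not far from the shallower control library. The log2 fold change of 2.52 (SE 0.77, limma-voom adjusted P = 0.0625) dropped to 1.6 without the deeper TKD library (adjusted P = 0.291) and to 1.25 without the deeper control library (adjusted P = 0.228), and became 3.35 without the shallower control library. Over its 13 alternatives the adjusted P ranged from 0.00131 to 0.291, and 7 passed. nodal2.S had 16.9 and 16.5 normalized reads in TKD libraries against 0 and 2.35 in control libraries, from 28 and 3 reads. The ratio of the pooled reads was 18.2, with a 95% counting interval of 5.62 to 93.4. It passed the filter on low counts only through the TKD libraries, so its entry into the test depended on the level that was compared, and its values are given as a description. RefSeq names no gene nodal2.S, so which gene this entry stands for was not checked.

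nodal1 (Xnr1) acts in germ layer formation and later, on the left side of the embryo, in left-right asymmetry. nodal1.L had 40.4 and 43.0 normalized reads in TKD against 6.59 and 5.48 in control libraries, with deposited means of 41.7 and 6.04. Replicates were nearly equal in each group. The fold change was 6.53 (95% interval 2.65 to 16.1, log2 fold change 2.71, SE 0.56, limma-voom adjusted P = 0.0192). It passed in 12 of 13 alternatives (adjusted P between 0.000101 and 0.115), and the exception was the analysis without the deeper control library, where the log2 fold change was 2.84. nodal1.S, with 18.8 and 14.9 against 3.55 and 7.05 normalized reads, did not reach the minimum of reads. The ratio of its pooled reads (29 and 16) was 3.53, with a 95% counting interval of 1.85 to 6.96. Without the filter, limma-voom gave it a log2 fold change of 1.82 (adjusted P = 0.169).

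nodal3.2 (Xnr3) differs from the other nodal genes in that its product does not induce mesoderm; it promotes neural fate and convergent extension and is a direct target of beta-catenin in the organizer. nodal3.2.L had 21.6 and 11.6 normalized reads in TKD libraries and 3.55 and 2.35 in control libraries. The groups did not overlap, but only 1 library held 10 or more reads. The pooled ratio was 5.84 (30 and 10 reads, 95% counting interval 2.78 to 13.4), and without the filter on low counts the adjusted P from limma-voom was 0.0934. Intervals of pooled reads cover counting error only and not the spread between embryos.

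The gene named nodal without a number corresponds to Xnr4, which is transcribed in the organizer and marginal zone of the gastrula. nodal.L stood at 11.3 and 13.2 normalized reads in TKD and 11.7 and 12.5 in control libraries, with deposited means of 12.3 and 12.1. The 4 libraries could hardly be told apart. The log2 fold change was 0.03, with a 95% interval from −1.35 to 1.41 (limma-voom adjusted P = 0.98), which spans changes of 2-fold in either direction, from 59 reads in all. The sign was negative without the shallower TKD or the deeper control library (−0.072 and −0.054). nodal.S had 7 and 0 reads in TKD and 1 and 3 reads in control libraries, too few to detect a difference. The summed reads of nodal1, nodal2, nodal3.2 and nodal6 exceeded those of both nodal entries 17.2-fold and 18.4-fold in TKD but 3.75-fold and 3.95-fold in control libraries. This contrast between the numbered genes and nodal was chosen after the values were seen and is given without a test.

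**Figure D2:**
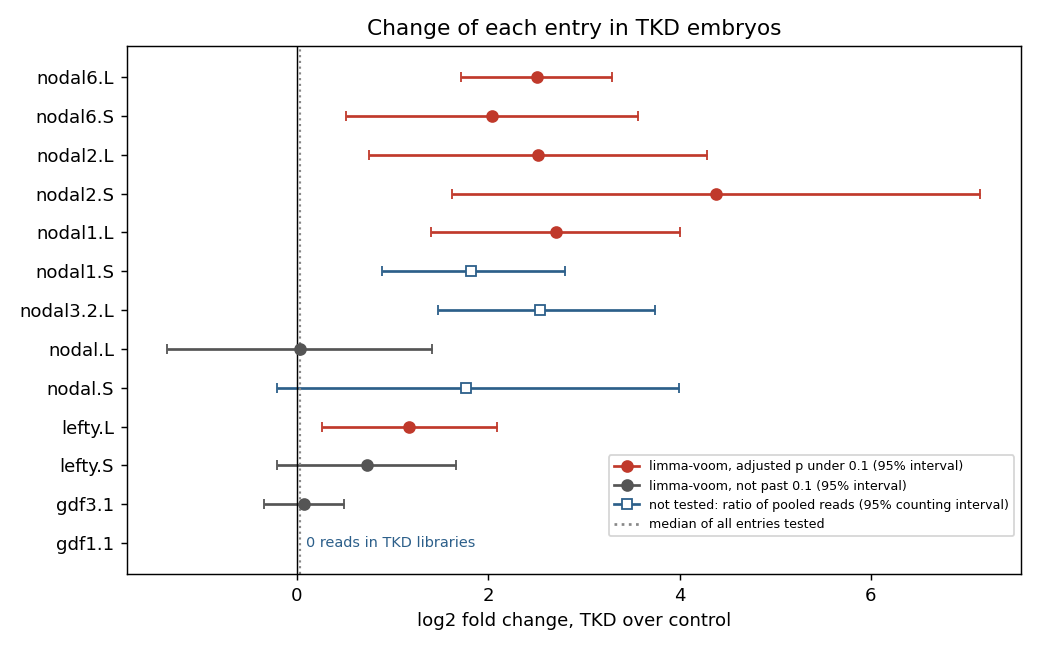
Log2 fold change of TKD over control (x axis) for each entry (y axis), as circles with 95% intervals from limma-voom, in red where the adjusted P-value was under 0.1. Squares give the ratio of pooled reads with its 95% counting interval for entries not tested. The intervals of nodal6, nodal2, nodal1.L and lefty.L lie above 0, those of nodal.L, lefty.S and gdf3.1 include it. nodal2.S passed the filter on low counts only through the TKD libraries, so its interval is a description. nodal1.L, nodal2.L and nodal6.S passed it with 2 TKD libraries but only 1 control library.

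lefty encodes the inhibitor that Nodal signaling induces. Its L copy rose in TKD embryos and its S copy did not pass the test. lefty.L had 100.6 and 56.2 normalized reads in TKD libraries and 41.6 and 28.2 in control libraries, with deposited means of 78.4 and 34.9. The groups did not overlap, although the lower TKD library was near the higher control library. The fold change was 2.26 (log2 fold change 1.18, SE 0.40, 95% interval 0.26 to 2.1 on the log2 scale, limma-voom adjusted P = 0.083). The call was lost without the deeper TKD library (log2 fold change 0.68, adjusted P = 0.486) and without the shallower control library (0.95, adjusted P = 0.122), and 8 of 14 alternatives passed (adjusted P from limma between 0.00158 and 0.486). lefty.S had 40.4 and 33.1 normalized reads against 24.3 and 20.4. Its log2 fold change of 0.73 (SE 0.41) did not pass (limma-voom adjusted P = 0.254), with a 95% interval from −0.21 to 1.67.

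Neither Vg1-type entry was called higher or lower. gdf3.1 had 688.3 and 644.9 normalized reads in TKD and 649.1 and 620.1 in control libraries, with deposited means of 666.6 and 634.6. The values of the groups overlapped and were the best covered of the family, with 1122 and 2072 reads. The log2 fold change was 0.07 (SE 0.18, limma-voom adjusted P = 0.815). With this scaling, the 95% interval of the fold change, 0.786 to 1.41, leaves out a change of 1.5-fold or more. With libraries scaled by total reads or upper quartiles, the upper bound was 0.67 or 0.60 on the log2 scale, against 0.49 here. A rise of 1.5-fold was then not left out. Among 1101 named entries with a mean level within 2-fold of it, the 3 whose values ran most nearly parallel over the 4 libraries were pls3.L, lima1.L and cand1.L, at Euclidean distances of 0.0521, 0.0610 and 0.0682 on the centred log2 scale. gdf1.1 had 0 reads in both TKD libraries and 14 and 4 reads in the control libraries, or 7.10 and 3.13 normalized reads. The ratio of its pooled reads (0 and 18) was 0, with a 95% counting interval that reached 0.443. It did not reach the minimum of reads, and the adjusted P from limma-voom without the filter was 0.0823. Both Vg1-type entries carry a number and no L or S, and the gene table does not say which copy they stand for. Neither is among the entries that RefSeq names. Whether gdf1.1 holds the maternal Vg1 transcript, and gdf3.1 that of derrière, was therefore not checked.

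Within a library, ratios between these groups of genes do not depend on how libraries are scaled. The nodal entries together had 2.30 and 2.87 times the reads of lefty in TKD, and 0.877 and 1.52 times in control libraries. The log2 ratio was 1.16 higher in TKD embryos, or 2.23-fold, with a pooled SD of 0.43 between libraries of a group. The nodal entries had 0.471 and 0.397 times the reads of the Vg1-type entries in TKD libraries but 0.0881 and 0.118 times in control libraries, a 4.24-fold difference (log2 2.09, pooled SD 0.24). lefty had 0.205 and 0.138 times the reads of the Vg1-type entries in TKD and 0.10 and 0.0779 times in control libraries, a 1.90-fold difference. The groups did not overlap in any of these 3 ratios. The exact two-sided permutation P was 0.333 for each, the smallest that 2 libraries against 2 can give. As genes differ in length, the ratios show changes between groups and not the proportions of molecules.

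**Figure D3:**
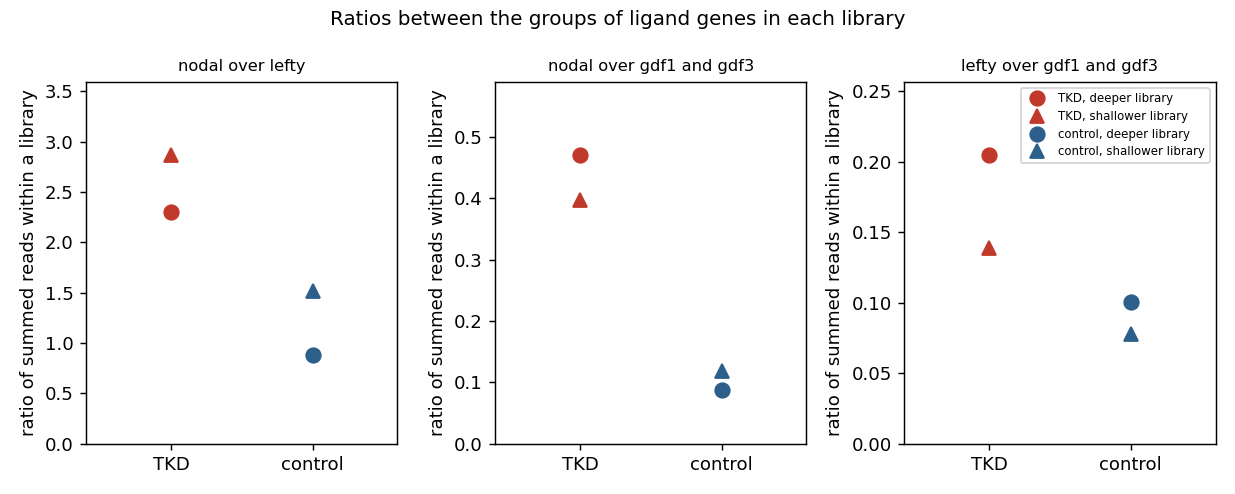
Ratio of summed reads (y axis, from 0) within each library for the nodal entries over lefty, the nodal entries over the Vg1-type entries, and lefty over the Vg1-type entries, with TKD in red and control in blue. Both TKD libraries stand above both control libraries in all 3 panels, from 2.30 and 2.87 against 0.877 and 1.52 for nodal over lefty to 0.205 and 0.138 against 0.10 and 0.0779 for lefty over the Vg1-type entries.

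L and S copies can share reads where their sequences are identical, and in the sum it does not matter to which copy such a read was counted. The study's methods do not say how shared reads were counted, and any left out are missing from the sum too. With copies added up, nodal6 had 148.6 and 132.3 normalized reads in TKD against 27.9 and 23.5 in control libraries (log2 fold change 2.44, SE 0.32, limma-voom adjusted P = 0.00398). nodal1 had 59.2 and 57.9 in TKD against 10.1 and 12.5 in control (log2 fold change 2.39, SE 0.45, adjusted P from limma-voom 0.0132). nodal2 had 77.1 and 41.3 against 4.06 and 20.4 (log2 fold change 2.94, SE 0.73, adjusted P from limma-voom 0.033; 2.24 without the deeper TKD library, adjusted P = 0.106, and 1.56 without the deeper control library, adjusted P = 0.109). lefty had 141.0 and 89.3 against 65.9 and 48.5 (log2 fold change 1.02, SE 0.33, adjusted P from limma-voom 0.0744; 0.63 without the deeper TKD library, adjusted P = 0.441, and 0.83 without the shallower control library, adjusted P = 0.152). The summed nodal reads did not pass (log2 fold change 0.30, SE 0.57). With copies summed, 10.9% of 13464 genes rose and 15.0% fell. The response of the L copy was tested against that of the S copy for 3 pairs, and 0 were called, against 6.13% of the 3669 pairs of the genome tested (1 had an unadjusted P under 0.05 from limma). The log2 fold change of L minus that of S was −2.24 for nodal2 (95% interval −4.43 to −0.04, limma adjusted P = 0.25), 0.51 for nodal6 (−0.89 to 1.92) and 0.41 for lefty (−0.91 to 1.74). Each of these intervals is wide enough to hold a 1.5-fold difference between copies. The nodal2 pair, the 1 with an unadjusted P under 0.05 from limma, passed the filter only through the TKD reads of nodal2.S. Its entry into the test depended on the level that was compared, so its values are a description. Reads may also be shared between tandem copies of the nodal genes, which this sum does not settle.

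The other genes of the pathway, listed by role, had 105 entries, of which 86 were tested, 20 rose, 8 fell and 58 did not pass. Over all entries tested, 10.3% rose and 14.3% fell, and the counts of each list stand against these same shares. The median log2 fold change was 0.22, against 0.04 for all entries tested. The lists leave out the ligands and lefty and share a few genes. Symbols that found no entry, among them vegt, smad4, bix1.1 and otx2, were not analysed here. They made up 9 of 14 symbols for genes that induce or restrain nodal transcription and 6 of 11 for Smads and partners. For inhibitors they were 13 of 24, for target genes 10 of 30 and for receptors 4 of 13.

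Of 13 receptor and co-receptor entries tested, 1 rose and 1 fell. tdgf1.1.L, a Cripto-type co-receptor gene, had 159.9 and 167.0 normalized reads in TKD against 71.0 and 59.5 in control libraries (log2 fold change 1.31, limma-voom adjusted P = 0.0155). acvr2a.S, a type II activin receptor gene, had 113.8 and 155.4 against 239.9 and 249.8 (log2 fold change −0.91, limma-voom adjusted P = 0.0433), a call that was lost without the deeper TKD library (−0.65, adjusted P = 0.280). The type I receptor gene acvr1b did not pass in either copy (log2 fold changes −0.50 and −0.22), and the median of the list was −0.22. acvr2a.L (−0.45) and the Cripto-type entries tdgf1.3.L (0.31) and tdgf1.3.S (−0.18) did not pass either. Of 7 entries for proprotein convertases, the proteases that cleave TGF-beta precursors, 1 rose and 1 fell, with a median of −0.13, and neither call held in all alternatives. The calls were for pcsk7.S and furin.L. Their other copies, pcsk7.L (log2 fold change −0.25) and furin.S (0.30), did not pass, and each had the opposite sign to its called copy. pcsk7.S had a log2 fold change of 1.17 (limma-voom adjusted P = 0.0786), lost without the deeper TKD (adjusted P = 0.291), the shallower TKD (0.169) or the deeper control library (0.307). furin.L had −1.01 (limma-voom adjusted P = 0.0345), lost without the deeper (adjusted P = 0.157) or the shallower TKD library (0.105).

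Of 9 entries for Smads and nuclear partners, 3 rose and 6 did not pass, with a median of 0.73. foxh1.L, the gene of the partner of Smad2, had 662.0 and 717.7 normalized reads in TKD and 335.7 and 267.0 in control libraries (log2 fold change 1.19, limma-voom adjusted P = 0.00986). foxh1.S had a log2 fold change of 0.87 (limma-voom adjusted P = 0.0918), but this call was lost whichever library was left out (adjusted P between 0.116 and 0.310). The homeobox gene mixer.L had 0.73 (limma-voom adjusted P = 0.0781), and its call was lost without the deeper TKD (0.52, adjusted P = 0.293) or the deeper control library (0.47, adjusted P = 0.339). smad2 had log2 fold changes of 0.18 for the L and 0.02 for the S copy, neither past the threshold. Of 15 inhibitor entries, tgif1.L, a nuclear corepressor gene, rose (log2 fold change 1.08) and bambi.L, the gene of a pseudoreceptor, fell (−1.08, limma-voom adjusted P = 0.0247, and 0.147 without the deeper TKD library). The secreted antagonist gene cer1 did not pass (log2 fold changes −0.21 for the L and −0.51 for the S copy), nor did tgif1.S (0.74) and bambi.S (0.14).

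Of 10 entries for genes that induce or restrain nodal transcription early in the embryo, 6 rose and 4 did not pass, with a median of 1.05. eomes.S, a T-box gene, had 576.4 and 378.7 normalized reads in TKD against 189.1 and 197.3 in control libraries (log2 fold change 1.3, limma-voom adjusted P = 0.0142). sox7.L, a Sox gene that acts downstream of VegT, had 71.5 and 56.2 against 14.2 and 24.3 (log2 fold change 1.87, limma-voom adjusted P = 0.0247, and 0.123 without the deeper TKD library). foxi2.L, a maternal forkhead gene of the ectoderm, had 130.7 and 105.8 against 34.0 and 46.2 (log2 fold change 1.63). pou5f3.3.L, an Oct4-type gene, rose from 178.0 and 223.1 in control to 372.4 and 449.8 normalized reads in TKD libraries (limma-voom adjusted P = 0.0209). TKD was fully above control for 8 of the 10 entries and fully below for sox7.S, compared with 29.9% and 30.7% of all entries tested.

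Of 37 entries for Nodal target genes tested, 11 rose, 5 fell and 21 did not pass, with a median of 0.25. The organizer gene gsc.L had 315.0 and 362.1 normalized reads in TKD against 36.0 and 36.8 in control libraries (log2 fold change 3.2, limma-voom adjusted P = 0.00267). The homeobox gene mix1 rose in both copies (log2 fold changes 2.17 and 1.94). In contrast, brachyury fell: t.L had 60.2 and 71.1 normalized reads in TKD against 471.1 and 392.3 in control libraries (log2 fold change −2.73, limma-voom adjusted P = 0.00287). The other calls below control were t.S (−1.85), gata6.S (−1.18), wnt8a.S (−0.69) and foxa2.S. The call of wnt8a.S was lost whichever library was left out (log2 fold changes between −0.80 and −0.60). Its other copy, wnt8a.L, went the other way and rose (log2 fold change 0.96, limma-voom adjusted P = 0.0218). foxa2.S had 4.70 and 6.61 normalized reads in TKD against 50.2 and 66.5 in control libraries and reached the minimum of reads only through control. The endodermal genes moved in no single direction. Besides the calls of gata6.S and foxa2.S, their other copies gata6.L (−0.92) and foxa2.L (−1.46) did not pass. mixer.L rose (0.73) and mixer.S did not pass (0.90). For the L and S copies, gata4 had log2 fold changes of −0.62 and −0.46 and sox17a of −0.14 and −0.11. sox17b.1 had 0.43 and 0.72, and no entry of gata4, sox17a or sox17b.1 passed.

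**Figure D4:**
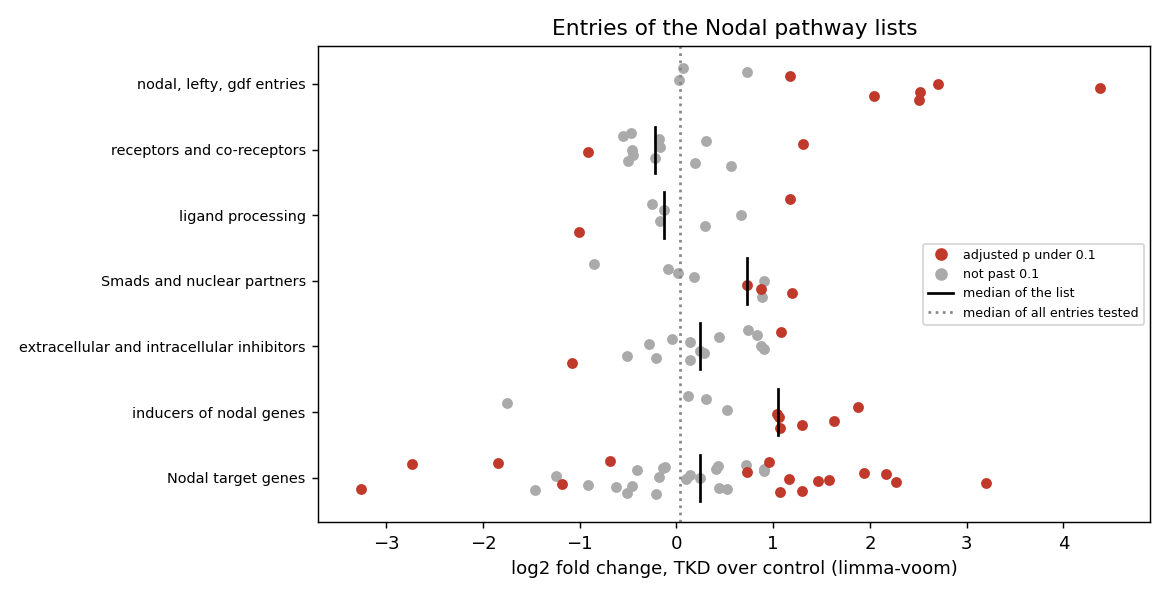
Log2 fold change of TKD over control from limma-voom (x axis) for each tested entry of the ligand and lefty genes and of 6 lists of pathway genes (y axis), in red where the adjusted P-value was under 0.1, with the median of each pathway list as a black bar and the median of all entries tested, 0.04, as a dotted line. The list labelled inducers holds genes that induce or restrain nodal transcription. Its median (1.05) and that of the Smads and partners (0.73) lie to the right of that of the receptors (−0.22). The target genes spread from −3.26 to 3.2. Among the ligand entries, nodal2.S, nodal1.L, nodal2.L and nodal6.S would not have passed the filter on low counts through the control libraries alone.

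Marker genes of the stage moved with the group as well. Maternal and oocyte transcripts were higher in TKD embryos, with 9 of 12 tested entries called higher and 1 lower (median log2 fold change 0.95) and summed levels of 7486 and 7322 normalized reads against 3426 and 3687. By adjusted P, the first were ccna1.L, btg4.L, ccna1.S and zp4.L, with log2 fold changes of 1.86, 2.70, 1.53 and 1.42. The entry called lower was grip2.L (log2 fold change −1.39, limma-voom adjusted P = 0.0122). Early gastrula genes were present in every library, with sums between 5377 and 7791 normalized reads, of which 4 of 19 entries rose and 6 fell. These counts stand against 10.3% that rose and 14.3% that fell among all entries tested. Of 13 entries for genes of later tissues, such as hemoglobin hba1 and cardiac troponin tnnt2, 10 had no read in any library. The part of the maternal transcripts in the higher nodal and lefty levels was not tested, and depletion and developmental arrest cannot be told apart in this design.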

How the data were processed

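Single-end RNA sequencing of ribosomal RNA-depleted libraries was analysed for 2 TKD and 2 control samples, grouped by the sample titles. The authors mapped reads of 75 nt with STAR to assembly JGI 9.1, allowing 1 mismatch, and used DESeq to compare groups (STAR and DESeq also stand in the submitters' processing notes, without versions). The deposited signal columns are group means of size-factor-normalized read counts. The authors' columns of fold changes, P-values and adjusted P-values were not used.

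Each group mean adds whole reads of 2 libraries, each weighted by its size factor. Solving for these gave the size factors (1.06 and 0.605 for TKD, 1.97 and 1.28 for control) and whole reads for 45088 of 45098 entries, with 93.1% (TKD) and 89.2% (control) of all signal. All 13 entries reported were solved. Recovery and fits were tested on simulated data. With counts simulated at a fixed dispersion, the fit called 26 of 97 genes changed 2-fold and 83 of 97 changed 4-fold. It called 12 of 16426 unchanged genes. In that simulation most changes of 2-fold were missed. The simulation changed a far smaller share of genes than the 24.6% of entries called in the data. As adjusted P-values depend on that share, its counts do not give the power of the test on the data. Libraries carry no replicate number. Entries were fitted by limma-voom (limma 3.58.1 in R 4.3.3), scaled by the size factors. Copies were compared by limma on the log2 ratio of L to S reads plus 0.5. Other steps used matplotlib 3.10.9, SciPy 1.17.1, pandas 2.3.3 and NumPy 2.4.6 under Python 3.11.15. Gene synonyms and gene order come from RefSeq (assembly Xenopus_laevis_v10.1), which names 10 of the 13 entries, all but nodal2.S, gdf1.1 and gdf3.1. Named are every entry of the family, the knockdown targets and up to 4 called entries per list, taken by smallest adjusted P. The 3 entries nearest to the member with most reads are also named. Further entries were named after their values were seen: acvr1b, acvr2a.L, tdgf1.3, pcsk7.L, furin.S, smad2, tgif1.S, bambi.S, cer1, sox7.S, grip2.L and the further target genes. The entries, lists and tests were chosen with earlier results of these data known. Alternatives were other scalings, filters of low counts, thresholds, pseudocounts of 1 and 8, thinning, leaving out each library and pairings.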

Additional observations from a re-analysis of the deposited data

How the results depend on the processing

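The 6 entries of the family that rose became 2 with at least 20 reads required in every library, 3 with libraries thinned to the shallowest, 3 at an adjusted P-value under 0.05 and between 2 and 5 with each library left out. With at least 20 reads in every library, gdf3.1, lefty.L, lefty.S and nodal6.L were the only entries of the family tested. The other called entries were thus filtered out, and 15.8% of the 11503 entries tested rose. With thinned libraries, 8.75% of all entries tested rose. With a library left out, 1 group held 1 library. The 0 entries of the family that fell became 1 (gdf1.1) without a filter on low counts. Of the genes with copies summed, the 4 that rose became 2 with at least 20 reads in every library and between 2 and 4 with each library left out, and the 0 that fell became 1 without the filter. Of the pathway entries, the 20 that rose and 8 that fell ranged from 12 to 23 and from 5 to 10 with each library left out. Library numbers are unknown, so both possible pairings were fitted as a replicate block. With the deeper TKD library paired with the deeper control library, 2 entries of the family and 2 summed genes rose, and 13 pathway entries rose and 4 fell. Of all 17026 entries tested, 468 (2.75%) rose and 1178 fell with this pairing. With the opposite pairing, 6 entries rose, and 31 pathway entries rose and 16 fell, while 3616 (21.2%) of all entries tested rose and 3767 fell. The counts for the pathway thus changed along with those for all entries. Across tested genes, the deviations of the deeper TKD library correlated at 0.49 with those of the shallower control library, as a description of these 4 libraries. Library totals and upper quartiles moved the median log2 fold change of all entries from 0.04 to 0.21 and 0.14, and library totals moved the share of rises among all calls from 41.8% to 58.1%. The ratios of nodal to lefty and to Vg1-type reads kept their direction with L or S entries alone and without each library (log2 differences between 0.76 and 1.55, and between 1.87 and 2.30). For single genes, 558 comparisons with an alternative kept direction and call, 82 lost the call and 2, both of nodal.L, changed sign to −0.072 and −0.054, within a range from −0.072 to 0.18 with each library left out. At these depths, entries under about 10 reads per library limit what can be detected.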

Other observations

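Several of these genes lie in tandem. In the RefSeq gene order, nodal1.L and nodal2.L are direct neighbours, nodal3.2.L stands 4 places from nodal2.L, and nodal6.L stands beside 2 copies of nodal5. Within 5 places of the 10 entries that RefSeq names lay 83 other genes, a set chosen after the data were seen. Only 20 of them were tested, and the rest had no entry of that name or too few reads. Of the 20, 1 rose and 6 fell (limma-voom, median log2 fold change −0.23), where 10.3% of all entries tested rose and 14.3% fell. ash2l.L, a subunit gene of histone methyltransferase complexes and the direct neighbour of nodal1.L, had a log2 fold change of −1.41 (limma-voom adjusted P = 0.0185, and 0.129 without the deeper TKD library), whereas nodal1.L rose by 2.71. The other copy, ash2l.S, the direct neighbour of nodal1.S, did not pass (log2 fold change −0.19, limma-voom adjusted P = 0.541). Near lefty, the 6 tested neighbours were the L and S copies of enah, sde2 and acbd3. acbd3 did not pass in either copy (log2 fold changes −0.06 and −0.47). The other 4 fell, with log2 fold changes of −2.68 for enah.L, −1.12 for enah.S, −1.04 for sde2.L and −0.85 for sde2.S, beside 1.18 for lefty.L. Without the deeper TKD library, only the call of enah.L remained of these 4 (adjusted P from limma-voom between 0.216 and 0.388 for the other three).

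Activin-type ligand genes, which signal through the same receptors, were nearly silent: 6 of 9 entries had no read in any library and 1 reached the minimum of reads. This entry, inhbc.2.S, had 17 and 0 reads in the deeper and shallower TKD libraries and 0 and 16 reads in the deeper and shallower control libraries.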
